A study of Mus musculus with 6 samples.

Results

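The 32 genes described here are interferon-stimulated genes, that is, genes whose transcription rises when a cell senses an interferon. They were listed by name, and chemokines were left out. All 32 had at least 1 probe set on the array, out of 20671 genes with a probe set, and together they had 54 of the 45037 probe sets that were tested. Liver RNA of male C57BL/6J mice, 6 weeks old at arrival, was hybridised to Affymetrix mouse genome arrays of the PM type in 3 groups of 8 mice. Control mice (CTL) ate chow and received all vehicles. The NASH group, a model of non-alcoholic steatohepatitis, ate a high fat diet with 60% of calories from fat from day 0 to 24. This group also received 4 intraperitoneal injections of the liver toxin carbon tetrachloride (CCl4, 0.1 ml/kg) and 5 of the liver X receptor agonist T0901317 (2.5 ml/kg) on days 20 to 24. The NASH+ISO group had the same diet and injections plus the flavonol isorhamnetin by mouth at 50 mg/kg daily from day 11 to 24, with vehicle given by mouth to the other groups. Because the diet, the toxin and the agonist were always given together, their shares in a difference from CTL cannot be told apart.

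Each group was measured on 2 arrays, which the sample descriptions call technical repeats. The number of mice behind an array is not stated, so every SD, standard error (SE) and p-value reflects how the arrays of a group scatter, and the scatter from mouse to mouse is not known. Values are log2 signals after robust multichip averaging, and a difference of 1 is a doubling of signal. Where a gene had several probe sets, the brightest one speaks for it unless stated otherwise, and p-values are from limma with Benjamini-Hochberg adjustment over all probe sets. In RNA of whole liver, fewer cells of a type and less RNA per cell cannot be told apart. Between the arrays of a pair the median difference was 0.0529 in CTL liver, 0.0472 in NASH liver and 0.0525 in NASH+ISO over all probe sets, and 0.0646, 0.0456 and 0.0331 over the interferon-stimulated genes.

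Interferons are secreted proteins that warn neighbouring cells of infection or damage. Sensors of foreign or misplaced RNA and DNA switch on the interferon genes through interferon regulatory factors. Type I interferons then bind a receptor made of IFNAR1 and IFNAR2, and the kinases on its tails phosphorylate factors of the STAT family. STAT2 joins IRF9 in a complex that binds the interferon-stimulated response element (ISRE) in the promoters of target genes. Interferon gamma uses another receptor, and its signal ends at the gamma-activated site (GAS). The products of the target genes bind viral RNA, block virus release, cut proteins for display on MHC class I molecules, or feed back on the pathway. In the liver both hepatocytes and the resident macrophages, the Kupffer cells, respond to type I interferons.

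For the 6 genes with the largest rise in NASH, the promoter is given to place the response elements in sequence. Each line holds the 150 bases before the annotated start of the gene on its own strand, from RefSeq on the GRCm38.p6 build, and capitals mark the ISRE core GAAANNGAAA or its reverse complement TTTCNNTTTC, overlapping matches joined. The positions are Ifit1, chr19:34640739-34640888, plus strand, Isg15, chr4:156200819-156200968, minus strand, Rsad2, chr12:26456453-26456602, minus strand, Bst2, chr8:71537473-71537622, minus strand, Igtp, chr11:58199406-58199555, plus strand, and Ifi44, chr3:151749911-151750060, minus strand.
Ifit1: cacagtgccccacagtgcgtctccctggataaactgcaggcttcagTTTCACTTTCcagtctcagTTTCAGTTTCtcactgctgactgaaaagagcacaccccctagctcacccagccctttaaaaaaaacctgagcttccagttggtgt
Isg15: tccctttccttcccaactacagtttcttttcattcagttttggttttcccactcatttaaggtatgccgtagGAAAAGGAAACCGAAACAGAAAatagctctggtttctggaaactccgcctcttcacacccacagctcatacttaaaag
Rsad2: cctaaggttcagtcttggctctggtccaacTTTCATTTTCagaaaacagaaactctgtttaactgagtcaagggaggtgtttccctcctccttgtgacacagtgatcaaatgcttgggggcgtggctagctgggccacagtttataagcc
Bst2: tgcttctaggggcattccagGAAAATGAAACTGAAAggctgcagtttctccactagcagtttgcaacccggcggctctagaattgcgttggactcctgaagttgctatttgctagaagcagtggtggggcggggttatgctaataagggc
Igtp: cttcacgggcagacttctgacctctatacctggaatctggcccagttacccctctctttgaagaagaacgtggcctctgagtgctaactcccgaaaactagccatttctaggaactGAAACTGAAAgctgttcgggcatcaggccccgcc
Ifi44: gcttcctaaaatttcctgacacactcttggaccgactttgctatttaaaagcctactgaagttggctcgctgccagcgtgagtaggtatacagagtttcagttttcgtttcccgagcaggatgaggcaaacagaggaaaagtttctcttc

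The Isg15 stretch held 3 overlapping matches, those of Ifit1 and Bst2 held 2 each, those of Rsad2 and Igtp held 1, and that of Ifi44 held none. A window from 250 bases before to 50 bases after the start was at hand for 26 of the 32 genes, all but Mx1, Mx2, Dhx58, Usp18, Parp14 and Rtp4. An ISRE core on either strand was found in 13 of the 26 genes (50.0%), against 3.99% of the 27025 genes with such a window. The 13 were B2m, Bst2, Ddx58, Gbp2, Gbp3, Ifih1, Ifit1, Ifit3, Igtp, Irgm1, Isg15, Rsad2 and Stat2. The GAS letters TTCNNNGAA, which read the same on both strands, were found in 6 of the 26 (23.1%), namely Bst2, Ifi35, Ifit2, Igtp, Irf1 and Psmb8, against 9.55% of all genes. Bst2 and Igtp held both motifs, and neither their matches nor the absence of letters in other windows shows whether a factor bound there.

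Most of the interferon-stimulated genes were higher in NASH than in CTL liver. Of the 32 genes, 25 were higher, 2 were lower (B2m and Herc6) and 5 did not pass the test (Ifih1, Irf1, Stat2, Mx1 and Mx2). Over all genes on the array 24.7% were higher and 28.3% were lower in this comparison. The median difference of the 32 genes was 0.51, against −0.03 over all genes. With the study's own thresholds, which ask for a 2-fold change or more and for p below 0.05 without adjustment, 6 of the 32 were higher and none was lower, where 2.88% of all genes were higher and 1.25% were lower. These 6 were Ifi44 (3.36-fold), Bst2 (3.31-fold), Isg15 (2.33-fold), Igtp (2.30-fold), Rsad2 (2.26-fold) and Ifit1 (2.13-fold).

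In the NASH+ISO livers the same genes stood lower than in NASH. None of the 32 was higher in NASH+ISO than in NASH, 24 were lower and 8 did not pass, where 19.9% of all genes were higher and 19.8% were lower. The median difference was −0.31, against 0.02 over all genes. No member fell to the fold threshold of the study, which 0.281% of all genes passed upwards and 0.619% downwards, and the deepest falls were those of Ifit1 (1.86-fold) and Isg15 (1.82-fold). Of the 25 genes that were higher in NASH than in CTL liver, 23 lay lower in NASH+ISO, and the remaining members of that group were Ifi35 and Xaf1. These counts use the NASH arrays in both comparisons, so they are not independent of each other.

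The genes nevertheless did not return to the control level as a group. Against CTL, 19 of the 32 were higher in NASH+ISO, 4 were lower (Irf7, Ifih1, B2m and Herc6) and 9 did not pass, where 23.3% of all genes were higher and 23% were lower. The median difference from CTL was 0.21, against −0.01 over all genes. Only Ifi44 passed the study's thresholds (2.34-fold higher), which 1.68% of all genes passed upwards and 0.929% downwards. Of the 23 genes that rose in NASH and were lower in NASH+ISO, 16 were still above CTL, 6 did not pass the test against CTL (Gbp2, Ifit3, Irgm1, Parp14, Psmb8 and Tap1) and Irf7 was below it. Averaged over the 32 genes, the log2 signal was 5.26 on both CTL arrays, 5.82 and 5.84 on the NASH arrays and 5.49 on both NASH+ISO arrays.

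**Figure D1:**
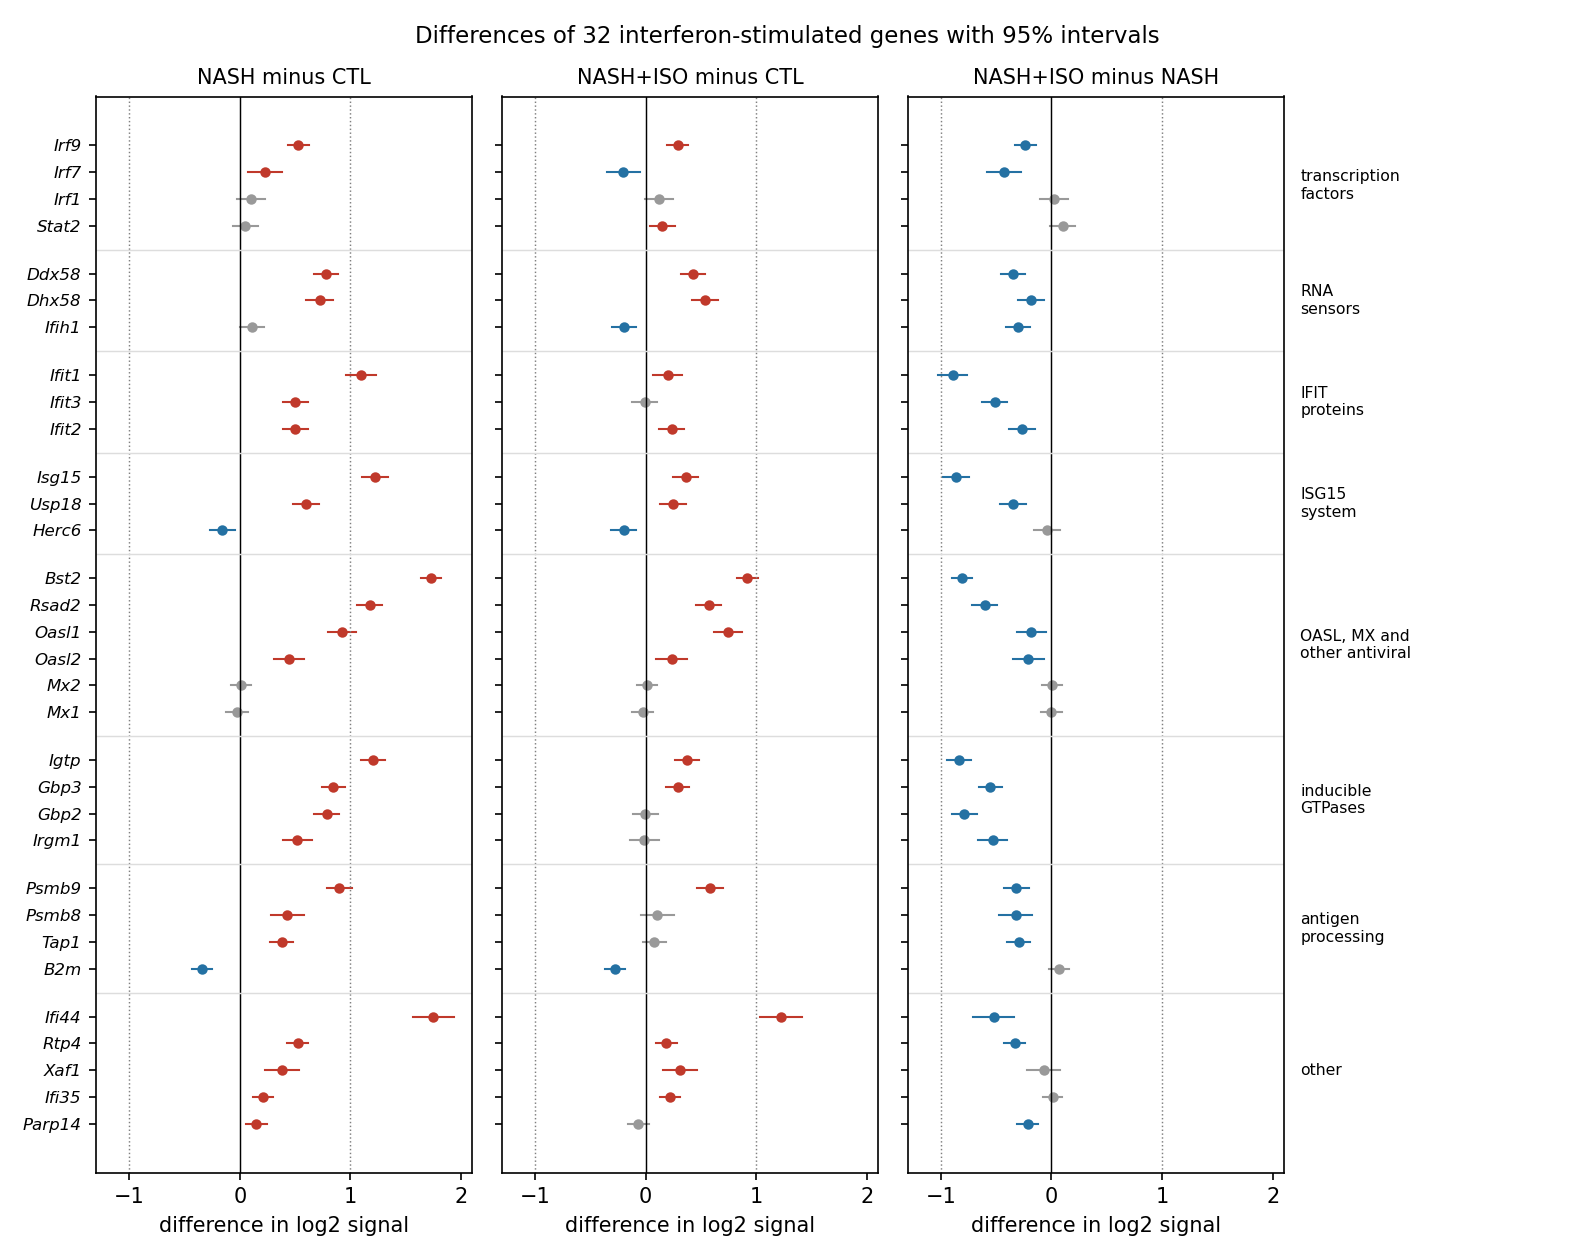
Difference in log2 signal of each of the 32 interferon-stimulated genes (rows, grouped by role) for NASH minus CTL, NASH+ISO minus CTL and NASH+ISO minus NASH, 2 arrays a group. Points are differences, bars are 95% intervals from limma, red and blue mark genes higher and lower at an adjusted p under 0.05, grey marks the rest, and dotted lines lie at a fold change of 2: 25 genes are red in the left panel and 24 are blue in the right one.

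The factors that carry the signal into the nucleus moved little. Irf9, the DNA-binding part of the type I complex, rose by 0.53 in NASH (SE 0.0402, limma adjusted p = 3.82e-05), and in NASH+ISO it was 0.24 below NASH and still 0.29 above CTL. Irf7, which drives the interferon alpha genes, was 0.23 higher in NASH (adjusted p = 0.0219) and 0.43 lower in NASH+ISO than in NASH (adjusted p = 0.00196), which left it 0.20 below CTL. Its NASH rise did not pass without CTL array 2 or without NASH array 2, and its position below CTL did not pass without CTL array 1 or without NASH+ISO array 1. Stat2, the partner of Irf9, differed between NASH and CTL by 0.05 (95% interval −0.07 to 0.16, adjusted p = 0.45). It was 0.15 above CTL in NASH+ISO (adjusted p = 0.0402), a call lost on leaving out any one array other than CTL array 2. Irf1, which interferon gamma induces through a GAS, stayed within 0.12 of CTL in both groups, with adjusted p-values of 0.166 and 0.112.

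Isorhamnetin-treated livers had less signal than NASH livers for all 3 cytoplasmic sensors of viral RNA in the set, where 19.8% of all genes were lower. Ddx58, which encodes RIG-I, a sensor of RNA with a 5′ triphosphate, rose by 0.78 in NASH (adjusted p = 9.62e-06) and was 0.35 lower in NASH+ISO. A dim Ddx58 probe set was 0.19 lower in NASH than in CTL, and with its 3 probe sets averaged the fall to NASH+ISO did not pass. Dhx58, which encodes LGP2, a helicase that tunes the other sensors, rose by 0.72 and was 0.18 lower in NASH+ISO (adjusted p = 0.0275), a fall that did not pass without NASH array 2 or either NASH+ISO array. With all 3 Dhx58 probe sets averaged, that fall became a difference of 0.02 with adjusted p = 0.689, and with the values of the comparison workbooks it was 0.01 with adjusted p = 0.963. Ifih1, which encodes MDA5, a sensor of long double-stranded RNA, was 0.11 above CTL in NASH without passing (adjusted p = 0.0918). In NASH+ISO it was 0.30 below NASH and 0.19 below CTL (adjusted p = 0.00229 and 0.0135), and the second of these did not pass without CTL array 2 or without NASH+ISO array 1.

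The IFIT proteins bind viral RNA and hold back its translation. Ifit1 had log2 signals of 4.05 and 3.96 on the CTL arrays, 5.09 and 5.10 on the NASH arrays and 4.27 and 4.14 on the NASH+ISO arrays. The NASH arrays stood far above the other groups, and the NASH+ISO arrays lay just above CTL without overlap. The rise in NASH was 1.09 (SE 0.0566, adjusted p = 5.51e-06), and in NASH+ISO only 18.2% of that log2 rise was left. The 0.20 by which NASH+ISO exceeded CTL (adjusted p = 0.0269) did not pass without CTL array 2 or without NASH+ISO array 1. Ifit2 and Ifit3, its neighbours in function and on chromosome 19, both rose by 0.50 (adjusted p = 0.00013 and 0.00012). They parted in NASH+ISO, where Ifit2 was still 0.23 above CTL (adjusted p = 0.00708), while Ifit3 differed from CTL by −0.01 (95% interval −0.12 to 0.10).

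ISG15 is a ubiquitin-like protein that is attached to other proteins and can also be secreted. The only probe set for Isg15 also names the predicted gene Gm9706, so the 2 cannot be told apart. Its log2 signal was 4.95 and 4.99 on the CTL arrays, 6.24 and 6.15 on the NASH arrays and 5.36 and 5.30 on the NASH+ISO arrays. The groups did not overlap, and NASH+ISO lay closer to CTL than to NASH. The rise in NASH was 1.22 (SE 0.049, adjusted p = 1.68e-06), the fall from NASH to NASH+ISO was 0.86 (adjusted p = 3.3e-05), and 29.5% of the rise was left. Usp18, the protease that removes ISG15 from proteins and damps the type I receptor, rose by 0.60 in NASH (adjusted p = 5.67e-05). It was 0.35 lower in NASH+ISO livers than in NASH and 0.25 above CTL.

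Herc6, the main ligase for ISG15 in the mouse, gave an unlike picture on its separate probe sets. The brightest one was 0.16 lower in NASH than in CTL (adjusted p = 0.033), a call lost on leaving out any one array other than CTL array 2, and 0.20 lower in NASH+ISO than in CTL, a call lost without CTL array 1 or either NASH+ISO array. The next brightest read 3.61 and 3.54 in CTL liver, 4.19 and 4.08 in NASH liver and 3.39 and 3.58 in NASH+ISO. On that probe set only the NASH arrays stood apart, with a rise of 0.56 (adjusted p = 0.000572) and a fall to NASH+ISO of 0.65 (adjusted p = 0.000505). Averaged over its 4 probe sets, Herc6 was 0.10 above CTL in NASH (adjusted p = 0.0515).

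**Figure D2:**
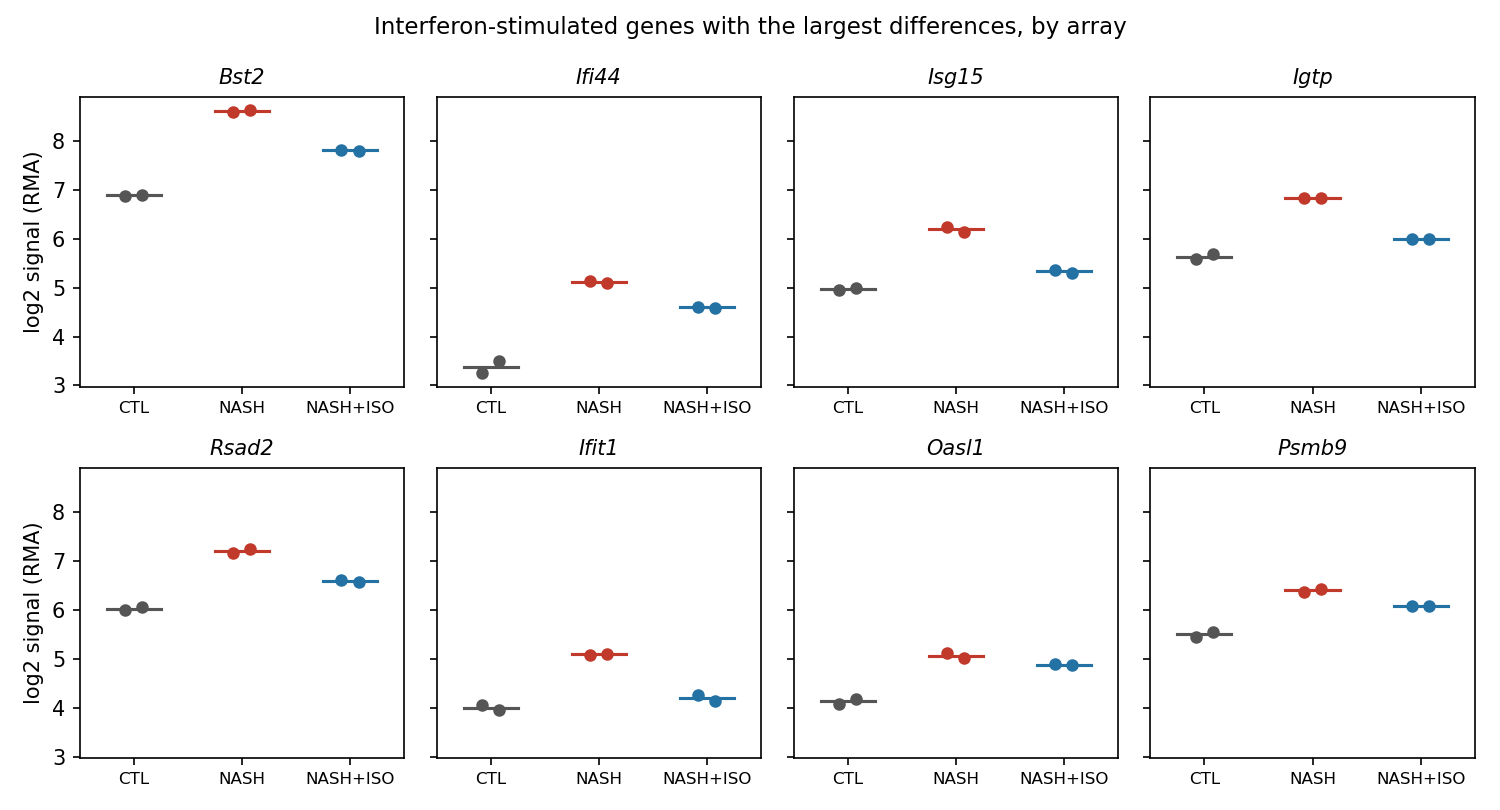
Log2 signal on each of the 6 arrays for the 8 interferon-stimulated genes that passed a fold change of 2 or were among the 4 largest differences of a comparison, 1 panel a gene, with points for arrays and lines for the group means. The NASH arrays lie above the CTL and NASH+ISO arrays in every panel, from Bst2 at 8.59 and 8.64 in NASH to Ifit1, where NASH+ISO (4.27 and 4.14) comes close to CTL (4.05 and 3.96).

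Bst2 encodes tetherin, a membrane protein that holds budding virus on the cell surface. Its log2 signal was 6.88 and 6.89 in CTL liver, 8.59 and 8.64 in NASH liver and 7.81 on both NASH+ISO arrays. The 3 groups were widely separated, with NASH+ISO near the middle. The rise of 1.73 in NASH had an SE of 0.0391 (adjusted p = 1.7e-07), the smallest p of the 32 genes, and 53.3% of it was left in NASH+ISO. Rsad2 encodes viperin, an enzyme that makes a chain-terminating nucleotide. It read 6.00 and 6.06 in CTL liver, 7.16 and 7.25 in NASH liver and 6.62 and 6.58 in NASH+ISO, again without overlap. The rise was 1.17 (SE 0.0478, adjusted p = 1.79e-06), with 48.5% of it left in NASH+ISO. A dimmer second Rsad2 probe set rose by 0.88 and fell to within 0.18 of CTL, while the dimmest of the 3 differed by −0.02 between NASH and CTL (adjusted p = 0.794).

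Oasl1 and Oasl2 belong to the family of 2′-5′ oligoadenylate synthetases, and in the mouse the Oasl1 protein blocks translation of Irf7 mRNA. Oasl1 read 4.09 and 4.19 in CTL liver, 5.11 and 5.01 in NASH liver and 4.89 and 4.87 in NASH+ISO. Here NASH+ISO stayed close to NASH. The rise was 0.93 (adjusted p = 9.54e-06), 80.5% of it was left, and the fall of 0.18 from NASH to NASH+ISO (adjusted p = 0.0356) did not pass when NASH array 1 or either NASH+ISO array was left out, nor with the array number as a block. Oasl2 rose by 0.44 and was 0.21 lower in NASH+ISO (adjusted p = 0.0302), a fall lost on leaving out NASH+ISO array 1 or either NASH array. Mx1 and Mx2, antiviral GTPases whose alleles are not functional in C57BL/6 mice, gave no difference. Mx1 had a mean of 2.27 in CTL liver, below 2.90, the highest signal of the 17 control probe sets without a mouse target, in all groups. Mx2 read between 4.15 and 4.19 on all 6 arrays.

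The interferon-inducible GTPases, which take part in defence against intracellular pathogens, moved together. All 4 were higher in NASH (median difference 0.82) and all 4 fell from NASH to NASH+ISO (median −0.67). Over all genes, 24.7% were higher in NASH than in CTL and 19.8% lower in NASH+ISO than in NASH. Igtp read 5.58 and 5.68 in CTL liver, 6.84 and 6.83 in NASH liver and 6.00 on both NASH+ISO arrays. The groups were separate, and the NASH+ISO arrays lay nearer to CTL. It rose by 1.20 (SE 0.0459, adjusted p = 1.36e-06) with 30.7% of the rise left. Gbp3 rose by 0.85 and kept a difference of 0.29 from CTL in NASH+ISO. Gbp2 rose by 0.79 and Irgm1 by 0.52, and in NASH+ISO both lay at the CTL level, with intervals of −0.12 to 0.11 and −0.14 to 0.12. A dimmer Gbp2 probe set rose by 0.32 in NASH and lay 0.15 below CTL in NASH+ISO (limma adjusted p = 0.0228). With the workbook values Irgm1 was 0.18 above CTL in NASH+ISO (adjusted p = 0.00522).

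In antigen processing the induced subunits and the bulk light chain went apart. Psmb8 and Psmb9 are among the catalytic subunits of the immunoproteasome, which cuts peptides for display, and Tap1 carries them into the endoplasmic reticulum. Psmb9 read 5.45 and 5.56 in CTL liver, 6.38 and 6.43 in NASH liver and 6.08 on both NASH+ISO arrays. NASH+ISO lay between the other groups, nearer to NASH. The rise was 0.90 (adjusted p = 6.56e-06) with 64.7% left. Psmb8 rose by 0.43 and Tap1 by 0.38 (adjusted p = 0.00122 and 0.000368), and both lay near CTL in NASH+ISO, at differences of 0.11 and 0.08 that did not pass. Without CTL array 1 the Psmb8 difference was 0.20 and passed. Averaged over its 4 probe sets, of which 3 lay below 2.90, Tap1 differed from CTL by −0.13 in NASH (adjusted p = 0.0231).

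B2m, the light chain of MHC class I, was lower in both disease groups. It read 11.16 on both CTL arrays, 10.80 and 10.83 in NASH liver and 10.90 and 10.87 in NASH+ISO. The CTL arrays stood above the rest, and the fall in NASH was 0.34 (SE 0.0386, adjusted p = 0.000286). A second bright probe set fell by 0.31, while the dimmest rose by 0.43 in NASH and by 0.80 in NASH+ISO against CTL. With all 3 averaged, the NASH difference was −0.08 and did not pass, and NASH+ISO was 0.09 above CTL (adjusted p = 0.076).

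Ifi44, an interferon-induced protein of the cytoplasm, had the largest rise of the 32 genes by value, close to that of Bst2. It read 3.25 and 3.50 in CTL liver, 5.14 and 5.10 in NASH liver and 4.60 and 4.59 in NASH+ISO. The CTL arrays spread more than those of the other groups, yet all 3 groups were separate. The rise was 1.75 (SE 0.0786, adjusted p = 2.83e-06), and with 70.0% of it left, Ifi44 was 1.22 above CTL in NASH+ISO (adjusted p = 2.36e-05). Rtp4, a chaperone for receptors that also restricts viruses, rose by 0.52 and was 0.33 lower in NASH+ISO. Xaf1, which opposes an inhibitor of apoptosis, rose by 0.38 and Ifi35, which binds the NMI protein, by 0.21. Neither differed between NASH+ISO and NASH on its brightest probe set, with intervals of −0.22 to 0.08 and −0.08 to 0.10. The other Ifi35 probe sets were 0.26 and 0.18 lower in NASH+ISO than in NASH (adjusted p = 0.00354 and 0.0266). A dimmer Xaf1 probe set went the other way, 0.27 higher in NASH+ISO than in NASH (limma adjusted p = 0.0129). That probe set differed from CTL by −0.13 in NASH without passing. Parp14, an ADP-ribosyltransferase, rose by 0.15 (adjusted p = 0.0198), a call lost without CTL array 1 or either NASH array, and was 0.21 lower in NASH+ISO.

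Probe sets of 1 gene did not always move alike. Over all 54 probe sets, 34 were higher and 9 lower in NASH than in CTL (all probe sets 22% and 27.2%). In NASH+ISO 25 were higher and 10 lower than in CTL (all probe sets 21.2% and 21.5%), and 4 were higher and 31 lower than in NASH (all probe sets 19.5% and 17.7%). Of the 54, 44 had a mean above 2.90. Among the members with several such probe sets, those of B2m, Ddx58, Herc6, Rsad2 and Xaf1 differed in sign between NASH and CTL, and those of Gbp2, Ifi35, Parp14 and Stat2 shared it.

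Genes that make or receive the signal were counted against the shares of all genes, 24.7% higher and 28.3% lower in NASH. In NASH+ISO against NASH these shares were 19.9% and 19.8%. Of 25 interferon and inducer genes listed, 14 were measured, 0 were higher and 5 were lower in NASH, 3 were higher and 0 lower in NASH+ISO against NASH, and 8 lay below 2.90 on average, Ifnb1 and Ifng among them. Ifnb1, for interferon beta, had means of 2.24 in CTL liver, 2.20 in NASH liver and 2.31 in NASH+ISO, and Ifng, for interferon gamma, 2.21, 2.14 and 2.21, so neither had a readable level. Il18, a cytokine that induces interferon gamma, fell by 0.54 in NASH, and Ifna7, of the interferon alpha family, was 0.25 higher in NASH+ISO than in NASH. Ifnab and Ifna11, which fell by 0.35 and 0.28 in NASH, lay below 2.90 on every array. Of the 6 receptor genes 1 was higher and 2 were lower in NASH, near the shares of all genes, and 1 was higher and 1 lower in NASH+ISO against NASH. Both chains of the type I receptor were lower in NASH, Ifnar1 by 0.25 and Ifnar2 by 0.49 (adjusted p = 0.00123 and 4.18e-05), and neither differed between NASH+ISO and NASH. Ifngr1, the binding chain for interferon gamma, rose by 0.61 and was 0.35 lower in NASH+ISO, while Ifnlr1, for type III interferon, was 0.07 above CTL in NASH without passing.

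The receptor kinases Jak2 and Jak1 fell by 0.73 and 0.30 in NASH and did not pass between NASH+ISO and NASH.

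Of 16 other sensors and adaptors measured, 4 were higher and 3 lower in NASH, and 4 were higher and 3 lower in NASH+ISO than in NASH, shares near those of all genes. Traf3, an adaptor below the RNA sensors, rose by 0.89 and was 0.43 lower in NASH+ISO. Ikbke, a kinase that activates the regulatory factors, rose by 0.57 and was a further 0.37 higher in NASH+ISO. Trim25, the ubiquitin ligase for RIG-I, fell by 0.56 and was 0.36 higher in NASH+ISO, and Ticam1, the adaptor of Toll-like receptor 3, was 0.35 higher in NASH+ISO than in NASH. Of the 6 other regulatory factors, 2 rose and 3 fell in NASH, with 1 higher and 2 lower in NASH+ISO than in NASH. Over all genes, 24.7% were higher and 28.3% lower in NASH. In NASH+ISO against NASH, 19.9% of all genes were higher and 19.8% lower. Irf2, which competes with Irf1 at response elements, fell by 1.28 in NASH and was 0.43 higher in NASH+ISO, Irf3 fell by 0.43, and Irf8, a factor of macrophages, rose by 0.61. Among 13 brakes on the pathway 6 rose and 3 fell in NASH, with 2 higher and 2 lower in NASH+ISO than in NASH. Apart from the rises in NASH, these counts of the brakes lay near the shares of all genes. Socs3, an inhibitor of JAK kinases, fell by 1.46, Irf2bp2, a corepressor, fell by 0.62, the phosphatase gene Ptpn1 rose by 0.60, and Cish was 0.44 lower in NASH+ISO than in NASH.

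Interferon targets and antigen processing genes outside the 32 were counted as 3 further lists. The shares of all genes were 24.7% higher and 28.3% lower in NASH, and 19.9% higher and 19.8% lower in NASH+ISO than in NASH. Of 46 other type I targets, 26 were higher and 5 lower in NASH (median 0.23), and 2 were higher and 24 lower in NASH+ISO than in NASH (median −0.16). Parp12, an ADP-ribosyltransferase, rose by 1.94, Lgals3bp, a secreted galectin ligand, by 1.88, Slfn9, of the Schlafen family, by 1.54 and the galectin gene Lgals9 by 1.49. Slfn9 then fell by 1.38 in NASH+ISO, while Lgals9 differed from NASH by −0.17 (adjusted p = 0.062). Of 13 other interferon gamma targets, 4 rose and 3 fell in NASH (median 0.08), and 0 rose and 6 fell in NASH+ISO against NASH (median −0.04). The NASH counts of these gamma targets lay near the shares of all genes. The GTPase genes Gbp6, Irgm2 and Ifi47 rose by 0.87, 0.86 and 0.59 in NASH and fell by 1.17, 0.90 and 0.46 from NASH to NASH+ISO, whereas Serping1, the complement inhibitor, fell in both steps by 0.54 and 0.36. Of 17 other antigen processing genes, 11 rose and 1 fell in NASH (median 0.28), and 0 rose and 10 fell in NASH+ISO against NASH (median −0.16). The proteasome subunit gene Psma1 rose by 1.21, the chaperone gene Canx by 0.96, Tapbp, for the peptide-loading factor tapasin, by 0.66 and Pdia3, of the same loading complex, by 0.25, and Pdia3 fell by 1.01 in NASH+ISO.

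**Figure D3:**
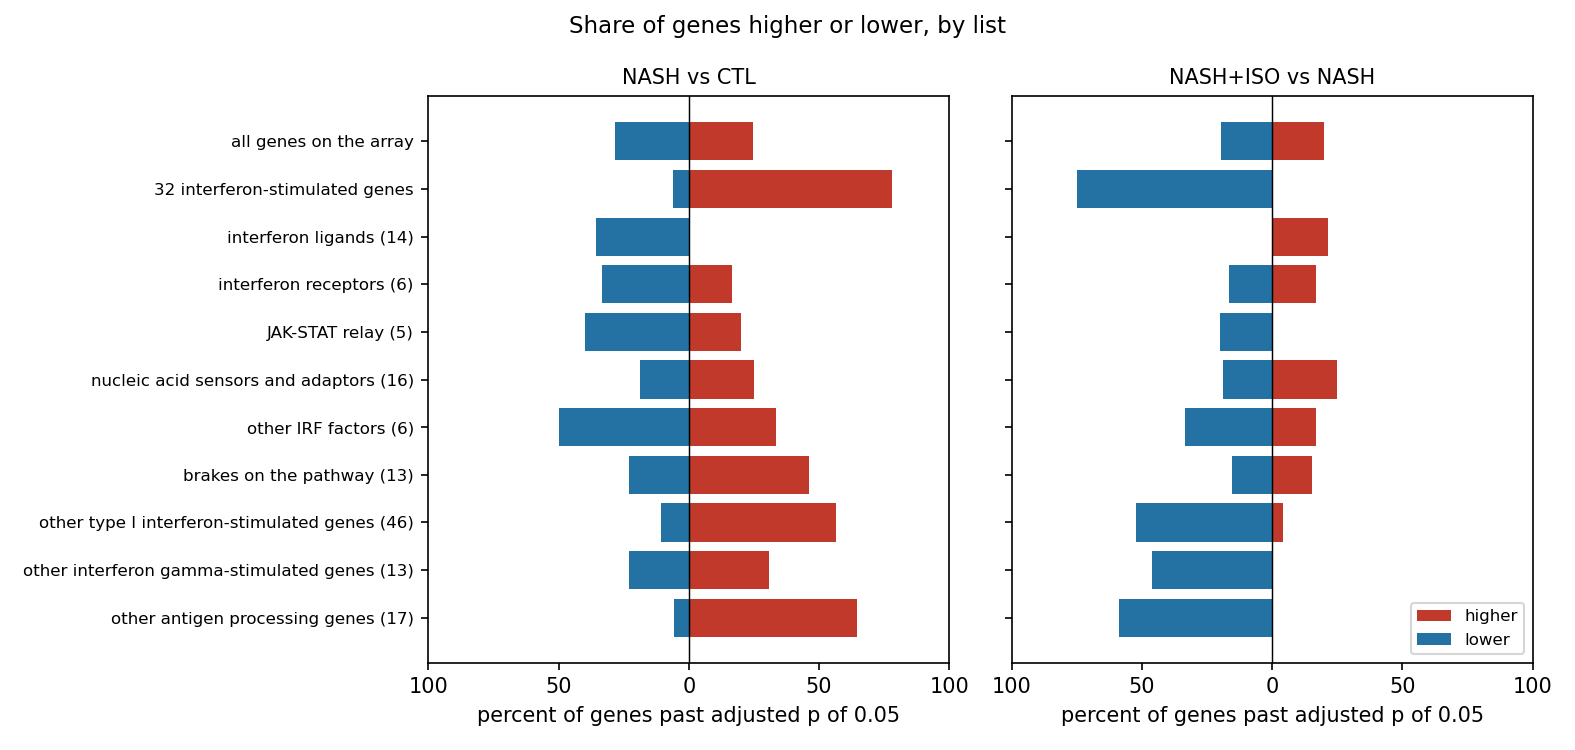
Percent of genes higher (red, right) and lower (blue, left) at an adjusted p under 0.05 for NASH versus CTL and for NASH+ISO versus NASH, over all genes, the 32 interferon-stimulated genes and 9 lists of other pathway genes, with the number measured in brackets. The 32 genes have 25 higher in the left panel and 24 lower in the right one, and the ligand list has 0 higher in NASH.

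The averages of some cell type marker lists moved with the interferon-stimulated genes, and their part in these differences was not tested. Over all genes, 24.7% were higher and 28.3% lower in NASH, and 19.9% were higher and 19.8% lower in NASH+ISO than in NASH. Counts of several of these short lists lay near these shares, that of monocyte markers higher in NASH among them. The 7 Kupffer cell markers averaged 5.49 and 5.54 in CTL liver, 5.89 and 5.87 in NASH liver and 5.57 and 5.54 in NASH+ISO, with 3 higher and 1 lower in NASH and 5 lower in NASH+ISO than in NASH. The median difference of the 7 Kupffer cell markers in NASH was 0.10. Clec4f, which defines these cells, differed from CTL by −0.03 in NASH (adjusted p = 0.61), while Cd5l, a secreted macrophage protein, rose by 1.31. The 7 measured markers of monocytes and recruited macrophages averaged 3.71 and 3.75 in CTL liver, 3.92 and 4.01 in NASH liver and 3.57 and 3.58 in NASH+ISO, with 2 higher in NASH, 3 lower in NASH+ISO livers than in NASH, and Itgam below 2.90. Of the 5 measured markers of plasmacytoid dendritic cells, the professional makers of type I interferon, 2 were higher in NASH (averages 3.82 and 3.84 in CTL liver, 3.97 and 4.00 in NASH), Ccr9 and Pacsin1 lay below 2.90, and the defining Siglech stayed between 4.20 and 4.32 on all arrays. The 6 stellate cell markers averaged 5.64 and 5.67 in CTL liver, 6.32 and 6.35 in NASH liver and 5.72 and 5.74 in NASH+ISO, with 3 higher and 1 lower in NASH and 4 lower in NASH+ISO than in NASH. The 6 T cell markers had 0 higher and 2 lower in NASH, the 6 measured markers of natural killer cells had 1 and 1 (Ncr1 and Prf1 below 2.90), the 4 of neutrophils 0 and 0, the 4 of conventional dendritic cells 1 and 1, the 6 of B and plasma cells 1 and 3, and the 5 of cholangiocytes 2 and 1. The 6 endothelial markers had 2 higher and 1 lower in NASH and 4 higher in NASH+ISO than in NASH. The hepatocyte markers Alb, Apoa1 and Ttr averaged between 12.46 and 12.49 on all 6 arrays, and 0 of the 3 differed between NASH and CTL.

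Controls of RNA integrity also differed between groups, and their part in the results was not tested. The beta-actin probe sets at the 3′ end exceeded those at the 5′ end by 5.00 and 4.88 in CTL liver, 4.43 and 4.41 in NASH liver and 5.02 and 4.98 in NASH+ISO. For Gapdh the excess was 3.82 and 3.79 in CTL, at most 3.01 in NASH, and 3.30 and 3.29 in NASH+ISO. A probe set for the 5′ part of small-subunit ribosomal RNA read 8.45 and 8.46 in NASH+ISO and between 10.53 and 10.64 on the other arrays. Array medians over all probe sets lay between 3.46 and 3.50.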

How the data were processed

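The authors scanned 6 Affymetrix mouse genome PM arrays, normalised them by robust multichip averaging in Expression Console and passed them to Transcriptome Analysis Console. Which of these steps made which deposited file is not stated. The deposited values are log2 signals per probe set. The value table of the series was used for all results, and the log2 columns of the 2 comparison workbooks, on average −0.10 apart from it, served as an alternative. The workbooks also hold the authors' group averages, SDs, fold changes and p-values, which were not used. The stated RNA amounts differ between the sample descriptions (9.4 µg) and the methods of the study.

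Of 45141 entries, 104 control probe sets were left out and 45037 were tested. Gene symbols came from the workbooks and were matched through synonyms in RefSeq tables. A linear model with 1 mean per group was fitted to all 6 arrays in limma 3.58.1 (R 4.3.3) with empirical Bayes moderation (3 residual and 4.01 prior degrees of freedom), and p-values were adjusted by Benjamini-Hochberg over all 45037 probe sets. The same code, tested on simulated data with changes larger than many reported here, recovered most of the changed probe sets it was given. Smaller changes were not simulated. Python 3.11.15 was used for the counts and plots. A signal of 2.90, the highest of 17 control probe sets without a mouse target, served as a guide to background. Number of arrays limits the precision. The members and lists were chosen with earlier results of these data known. All 32 genes are named. Values on each array are given for genes past a fold change of 2 and for the 4 largest differences of each comparison above the guide, and those of B2m and a Herc6 probe set were added after their values were seen. From each pathway list up to 4 genes with the largest difference among those past the test are named, plus Ifnb1, Ifng, Ifnar1, Ifnar2 and Ifnlr1, and some genes that this rule names are not reported here. Alternatives were other ways to moderate, scale and choose probe sets, other fold thresholds, the array number as a block and leaving out each array.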

Additional observations from a re-analysis of the deposited data

How the results depend on the processing

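Leaving out each array in turn gave 23 to 25 genes higher and 1 to 2 lower in NASH than in CTL (median 0.49 to 0.53, 6 past the study's thresholds). For NASH+ISO against CTL it gave 17 to 19 higher and 1 to 4 lower (median 0.18 to 0.23, 1 past the thresholds), with 1 lower without NASH+ISO array 1 and 2 lower without CTL array 1. For NASH+ISO against NASH it gave 0 higher and 21 to 24 lower (median −0.32 to −0.29, 0 past the thresholds). Array numbers did not pair the arrays, since same-numbered arrays correlated at 0.0465, 0.047 and 0.0916 after group means were removed. With the number as a replicate block, 25 genes were higher and 2 lower in NASH than in CTL, and 23 fell from NASH to NASH+ISO, the one lost being Oasl1.

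The count of genes lower in NASH than in CTL was 1 when only the 2 groups compared were fitted, without moderation, with median centring and with all probe sets of a gene averaged, and the count lower in NASH+ISO than in CTL was 1 without moderation. The NASH median was 0.45 after quantile normalization and 0.39 with probe sets averaged. The count higher in NASH+ISO than in NASH was 1 when the prior followed the mean level, 2 after quantile normalization and 1 with probe sets averaged, where the median was −0.25. At a fold change of 1.5, NASH differed from CTL in 13 genes, NASH+ISO from CTL in 3 and NASH+ISO from NASH in 6, and at a fold of 3 the first 2 numbers became 2 and 0. The shares of all genes at these folds were not counted, so these numbers only show how the counts depend on the threshold.

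Signs turned as follows, and the cause was not tested. In NASH against CTL, averaging probe sets gave Herc6 0.0966 and Tap1 −0.131, quantile normalization gave Irf1 −0.0164, Mx1 0.0166 and Stat2 −0.0377, median centring gave Mx1 0.0135, workbook values gave Mx2 −0.0529, and leaving out an array in turn gave ranges of Mx2 −0.0015 to 0.0173 and Stat2 −0.003 to 0.0971. In NASH+ISO against CTL, averaging gave B2m 0.0855, Parp14 0.14, Psmb8 −0.0315 and Tap1 −0.156, workbook values gave Gbp2 0.135, Ifit3 0.0498, Irgm1 0.179 and Mx2 −0.0252, median centring gave Gbp2 0.0032, quantile normalization gave Mx2 −0.0086, and leaving out an array in turn gave ranges of Gbp2 −0.0194 to 0.0143, Ifit3 −0.0552 to 0.0336 and Irgm1 −0.0814 to 0.0582. In NASH+ISO against NASH, averaging gave Dhx58 0.0228, Ifi35 −0.144 and Xaf1 0.0972, workbook values gave Dhx58 0.0058, median centring gave Ifi35 −0.0235, Irf1 −0.0121 and Mx2 −0.028, quantile normalization gave Mx2 −0.0135, and leaving out an array in turn gave ranges of Ifi35 −0.0047 to 0.0251, Irf1 −0.029 to 0.0723, Mx1 −0.0226 to 0.0202, Mx2 −0.0071 to 0.0184 and Xaf1 −0.165 to 0.0216. Without moderation, 17 single-gene calls did not pass, Ifi44 and Irf7 in NASH+ISO against NASH among them. The count lower in NASH+ISO than in NASH was then 18, against 24 with moderation. The count higher in NASH+ISO than in CTL was 13, against 19, and that higher in NASH than in CTL was 24, against 25. Single calls also lost were the rises of Ifi35, Irf7 and Parp14 in NASH after quantile normalization, the positions of Ifih1 and Ifit1 against CTL in NASH+ISO with workbook values, and the NASH calls of B2m, Dhx58 and Psmb8 with probe sets averaged.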
